A study of Mus musculus with 2 samples.

Results

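The extracellular matrix genes of mouse liver were examined in 2 droplet single-cell libraries, to name the cells that held the RNA of each. The group comprised 37 genes, chosen as a list of symbols and found in both count matrices by exact symbol, of 32285 genes in all. It took in 13 collagen, 3 small leucine-rich proteoglycan and 2 basement membrane linker genes, with matrix glycoproteins, matricellular proteins, the lysyl oxidases, the metalloproteases and their inhibitors. The DDC library pooled liver cells from 2 sources, untreated wild-type mice (day 0) and Sox9-EGFP animals fed for 2 weeks with DDC, a diet that injures bile ducts. The other library, called the DDC and cMet library here, pooled untreated wild-type mice at day 0 with Sox9-CreERT2:Rosa26-mTmG mice after 5 months of DDC diet with cMet given by HTVi, an injection into the tail vein that brings DNA into hepatocytes. The strain label of both was C57BL/6J;129S6/SvEvTac. There were 2 mice per time, and the barcodes carry no mark of mouse or time; each library therefore counted as 1 sample, a mixture of untreated and treated cells. Library and condition cannot be told apart, no p-value is given, and intervals are 95% intervals that cover counting error only.

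Extracellular matrix is a meshwork of collagens, proteoglycans and glycoproteins that cells secrete and attach to. Fibrillar collagens form tensile fibres, basement membrane components form thin sheets under epithelium and around vessels, lysyl oxidases crosslink the fibres, and metalloproteases cut the meshwork under the control of the TIMP inhibitors. In liver, hepatic stellate cells and portal fibroblasts are known as the main makers of fibrillar collagen in fibrosis, sinusoidal endothelial cells contribute matrix of the space beneath them, and hepatocytes secrete plasma fibronectin.

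After a filter of at least 500 genes, at least 1000 UMIs (counted RNA molecules) and at most 30% mitochondrial UMIs, 3613 of 8694 barcodes of the DDC library and 12593 of 18316 of the DDC and cMet library remained, with medians of 20397 and 3529 UMIs. The 2 libraries shared 50 barcode sequences, 8 of them among kept barcodes. Cells had been isolated as hepatocytes by perfusion, and the protocol also mentions enriched macrophages, without saying which went into these libraries. Classes were gated on marker genes, each gate asking for at least 2 UMIs and at least 1 UMI per 10000. The gates were Dcn or Lrat for stellate cells, Stab2 for endothelial cells, 4 Kupffer genes (Clec4f, Vsig4, Cd5l and Timd4), EGFP, which reports Sox9, and Epcam; Alb-high cells were at or above the library's median Alb. Barcodes that passed more than 1 of the Dcn/Lrat, Stab2 and Kupffer gates were set aside. So were those that passed 1 of these and also the EGFP, Epcam or Alb-high gate. Among the epithelial gates EGFP went before Epcam and Epcam before Alb-high, so EGFP-positive and Epcam-positive cells could also be high in Alb. Dcn/Lrat-positive cells then numbered 23 in the DDC library and 154 in the other, Stab2-positive cells 40 and 173, Kupffer cells 389 and 2367, Epcam-positive cells 8 and 42, and Alb-high cells 1393 and 4926. EGFP-positive cells numbered 387 and exist in the DDC library alone, since the other library carried tdTomato, of which 2 UMIs were counted in all.

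The stellate label was checked against 9 stellate markers that the gate did not use, such as Reln and Colec11. All 9 were detected in Dcn/Lrat-positive cells of both libraries, with a summed level of 25.0 UMIs per 10000 in the DDC library and 24.1 in the other, against 0.183 and 0.0956 in Alb-high cells. The sum was 3.04 and 2.36 in Stab2-positive cells, 2.59 and 2.50 in Epcam-positive cells and 1.30 in EGFP-positive cells. The same cells also held macrophage markers (60.4 and 29.4 UMIs per 10000, against 144 and 117 in Kupffer cells) and endothelial markers (3.30 and 7.15, against 84.4 and 98.5 in Stab2-positive cells). Most barcodes that passed the Dcn or Lrat gate were set aside: 202 and 623 passed it, and 69.8% and 59.2% of these also passed the Kupffer gate. Some counts of members and library ratios that rest on the 23 and 154 remaining cells are therefore given with an alternative. In it, each barcode of several gates went to the gate whose genes were highest relative to that gate's own cells. Levels of single members in the class are given for the 23 and 154 cells only. The 8 endothelial markers were all detected in Stab2-positive cells of both libraries, and 7 biliary and progenitor markers summed to 132 UMIs per 10000 in EGFP-positive cells against 17.4 in Alb-high cells. Of 6 portal fibroblast markers, Gli1, Pi16 and Clec3b were at 0 in Dcn/Lrat-positive cells of the DDC library and none in the other. The sums were 0.541 and 0.938, below the 1.13 and 1.94 in Stab2-positive cells. The 4 mesothelial markers (Msln, Upk3b, Gpm6a and Krt19) summed to 0.467 and 0.194 in Dcn/Lrat-positive cells, against at most 0.0288 in any other gated class. In the DDC library 15 of those 19 UMIs were Upk3b UMIs of 1 cell without Lrat, and Msln was at 0.

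For each member the main source was taken as the class with the highest level, in UMIs per 10000, and was called separated where its interval lay above that of every other class. Dcn is left out of these counts because the gate used it; of the others, 25 in the DDC library and 34 in the DDC and cMet library had at least 50 UMIs over the classes. Dcn/Lrat-positive cells were the main source of 11 of the 25 members in the DDC library, where they were the highest class for 13.7% of all genes tested, and of 26 of the 34 in the other, against 11.2% of all genes. Of these, 8 and 24 members were separated (0.802% and 2.41% of all genes). Stab2-positive cells led for 8 and 5 members (33% and 34.3% of all genes), close to or below the background, with 6 and 4 separated (5.15% and 12.3%). Alb-high cells led for 1 and 2 members (11.8% and 13.2% of all genes), with 1 and 2 separated (4.37% and 6.83%). EGFP-positive cells led for 3 (9.03%) and were separated for none (0.699%). Epcam-positive cells led for 2 and 1 (19.9% and 28.2%), with 0 and 1 separated (0.874% and 5.76%). Kupffer cells led for none in either library (12.5% and 13%; separated 2.91% and 5.51%). Where barcodes of several gates went to their highest gate, Dcn/Lrat-positive cells led for 18 members in the DDC library in place of 11, and where every cell was thinned to 2000 UMIs, for 3 in that library and 11 in the other, with fewer members tested. The share of all genes led by the class was not computed in these settings.

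**Figure D1:**
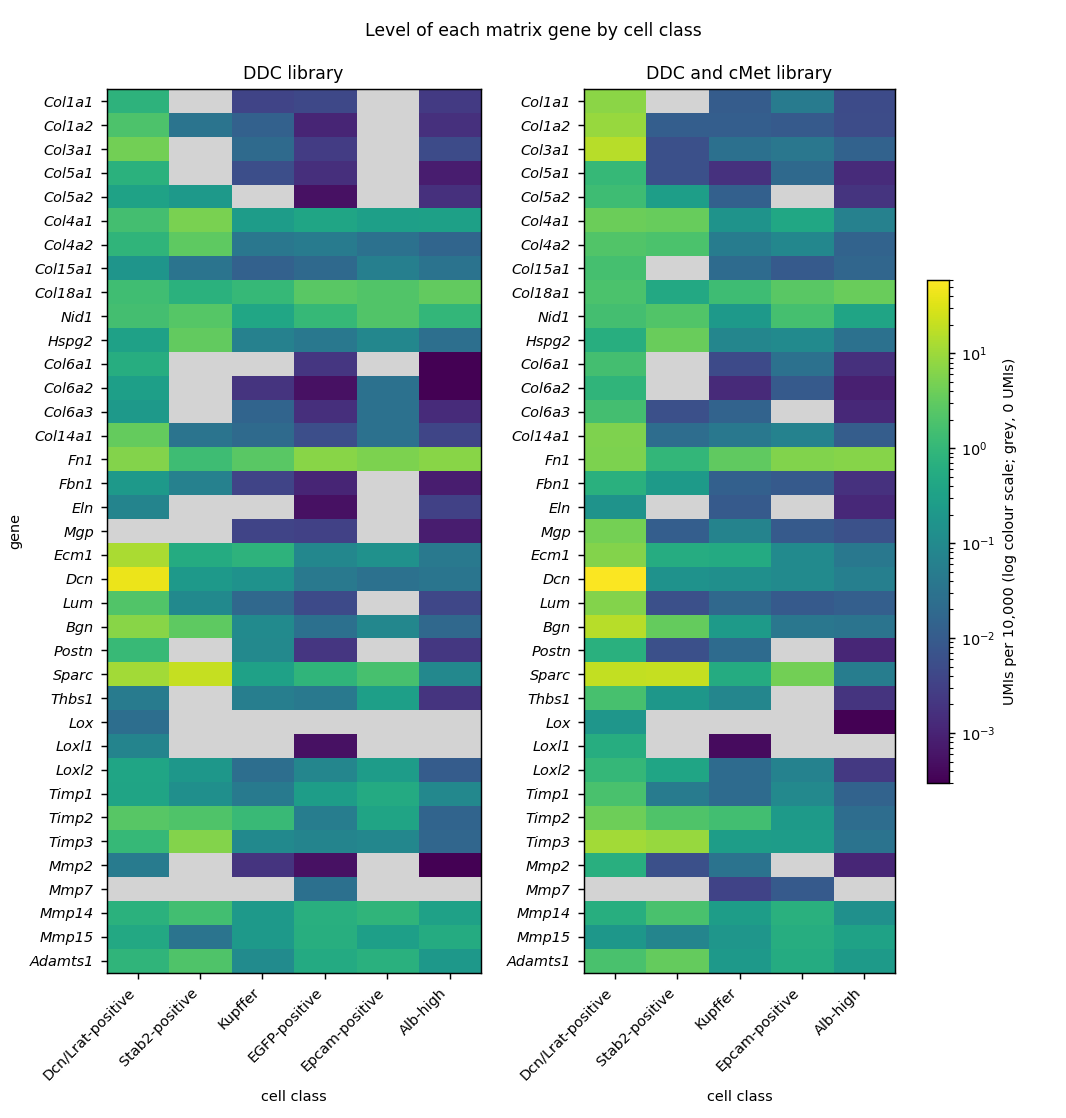
Level of each of the 37 matrix genes (rows, grouped by role) in each gated cell class (columns) of the DDC library and the DDC and cMet library, in UMIs per 10000 on a log colour scale, with grey for 0 UMIs; Dcn was used by its own gate. The fibrillar collagens, Lum and Col14a1 were brightest in the Dcn/Lrat-positive column, Hspg2 and Sparc in the Stab2-positive column, and Col18a1 and Fn1 stayed bright across the EGFP-positive, Epcam-positive and Alb-high columns.

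Fibrillar collagen RNA lay in Dcn/Lrat-positive cells. Col1a1, a chain of type I collagen and the standard readout of liver scarring, was at 0.787 UMIs per 10000 (0.539 to 1.11) in Dcn/Lrat-positive cells of the DDC library and 7.27 (6.79 to 7.77) in those of the other. In Alb-high cells it was at 0.00243 and 0.00484, and 0 UMIs were counted in Stab2-positive cells of either library. The intervals of the class sums did not overlap, and both Dcn/Lrat-positive levels lay far above those of every other class. Dcn/Lrat-positive cells were separated in this way for 0.802% and 2.41% of all genes tested. Single cells did overlap: of Dcn/Lrat-positive cells with at least 2000 UMIs, 10 of 16 and 53 of 85 had 0 Col1a1 UMIs. Col1a2, which encodes the partner chain, was at 1.99 (1.58 to 2.48) and 9.29 (8.75 to 9.86) against at most 0.0323 in any other class. Col3a1, the type III collagen of reticular fibres, stood at 4.55 (3.92 to 5.26) and 16.1 (15.4 to 16.9) against at most 0.0379. Col5a1 and Col5a2, the type V chains that set fibril width, were at 0.713 and 0.344 in the DDC library, where they had too few UMIs to test, and at 1.05 (0.871 to 1.25) and 1.33 (1.13 to 1.55) in the other, both separated. Col5a2 was also present in Stab2-positive cells, at 0.226 and 0.282, where Col5a1 was at 0 and 0.00587.

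With every cell thinned to 2000 UMIs, Col3a1 was found in 25% of 16 Dcn/Lrat-positive cells of the DDC library (7.27 to 52.4%, Clopper-Pearson). In the other library it was found in 36.5% of 85, and the shares for Col1a1 were 12.5% and 30.6%. The share in Kupffer cells, a type not known to make these collagens, was 0.932% and 0.692% for Col3a1. Thinning left out 7 and 69 shallower cells of the class, whose median depths were 15639 and 2200 UMIs, against 9198 and 5477 for Kupffer cells. Unthinned, Col3a1 was found in 52.2% of the DDC cells and Col1a1 in 30.4%. A few cells carried much of each sum: in the DDC library 1 cell held 40.6% of the Col1a1 UMIs of the class, 53.1% of Col1a2 and 71.4% of Col5a2. UMIs of that number lay in a cell with Dcn but without Lrat for each of these genes. Over the 11 cells with Dcn alone the stellate marker Colec11 was at 0.753 UMIs per 10000, against 9.9 in the 12 with both. Whether the cell with the Upk3b UMIs was the same was not tested.

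The beaded and fibril-associated collagens and the leucine-rich proteoglycans had the same main source. Col6a1, Col6a2 and Col6a3, the chains of the beaded type VI filaments that surround cells, were at 0.615, 0.295 and 0.221 UMIs per 10000 in Dcn/Lrat-positive cells of the DDC library and at 1.55, 0.895 and 1.54 in the other. Col14a1, a collagen on the fibril surface, was at 3.35 (2.81 to 3.96) and 5.78 (5.35 to 6.23), against at most 0.0663 elsewhere. Lum, which encodes the fibril-spacing proteoglycan lumican, was at 2.17 and 6.28 against at most 0.0969. Bgn, which encodes biglycan, a collagen-binding proteoglycan that can also signal in inflammation, differed from those in having a second high class. It was at 6.96 (6.17 to 7.82) and 16.2 (15.5 to 16.9) in Dcn/Lrat-positive cells and at 2.84 (2.28 to 3.50) and 3.36 (3.09 to 3.64) in Stab2-positive cells, with at most 0.227 in any other class. Dcn itself, for the related decorin, was at 42.6 and 54.9 in the cells it helped to gate and at 0.0343 and 0.0593 in Alb-high cells, which is a description only.

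Among the glycoproteins and elastic-fibre genes, Ecm1 and Mgp stood out by their pattern between libraries. Ecm1, which encodes a secreted glycoprotein that holds latent TGF-beta in check in liver, was at 13 UMIs per 10000 (11.9 to 14.2) in Dcn/Lrat-positive cells of the DDC library and 6.28 (5.83 to 6.74) in the other. The next class was Kupffer cells at 0.798 in the DDC library and Stab2-positive cells at 0.575 in the other. Mgp, which encodes an inhibitor of calcification, had 0 UMIs in the 23 Dcn/Lrat-positive cells of the DDC library and 4.74 UMIs per 10000 (4.35 to 5.15) in the 154 of the other. In the DDC library 108 Mgp UMIs were counted in 19 kept barcodes, and 65 of the UMIs sat in 1 barcode; 88.9% lay in barcodes of several gates. Fbn1, the fibrillin-1 scaffold of elastic fibres, was at 0.221 and 0.709, and Eln, for elastin, at 0.0738 (3 UMIs) and 0.160.

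Fn1, fibronectin, did not follow the stellate pattern. It was at 6.85 UMIs per 10000 (6.74 to 6.97) in EGFP-positive and 6.76 (6.68 to 6.85) in Alb-high cells of the DDC library, and 6.63 (6.57 to 6.69) in Alb-high cells of the other. Dcn/Lrat-positive cells were at 6.27 (5.53 to 7.09) and 5.38 (4.97 to 5.81), Kupffer cells at 2.69 and 2.99, and Stab2-positive cells at 1.36 and 0.974. In the DDC library the intervals of the EGFP-positive, Alb-high and Dcn/Lrat-positive classes overlapped, so no main source was separated. Of the Fn1 UMIs in the Stab2-positive cells of the DDC library, 73.8% came from 1 cell. Hepatocyte markers were detected in every class, at 139 and 145 UMIs per 10000 summed in Dcn/Lrat-positive cells against 413 and 442 in Alb-high cells, and their part in the Fn1 level of the other classes was not tested.

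Basement membrane genes split between endothelial, stellate and hepatocyte classes. Col4a1 and Col4a2 encode the chains of the type IV sheet, and in the mouse annotation they are transcribed away from each other from overlapping starts on chromosome 8 (Col4a1 from 11198423 to 11312826 and Col4a2 from 11312805 to 11449287 in GRCm38). In the DDC library Stab2-positive cells led for both, with Col4a1 at 5.14 (4.37 to 6.00) and Col4a2 at 2.97 (2.40 to 3.64), against 1.53 and 0.886 in Dcn/Lrat-positive cells. In the DDC and cMet library the 2 classes overlapped: Col4a1 was at 3.96 (3.61 to 4.34) in Dcn/Lrat-positive and 3.46 (3.19 to 3.75) in Stab2-positive cells. The pair parted in the epithelial classes. Col4a1 was at 0.310 in Alb-high cells of the DDC library, where Col4a2 was at 0.0157, and 26.1% of all Col4a1 UMIs of that library lay in Alb-high cells, against 5.71% of those of Col4a2. The annotated genes share 22 bases at their starts, on opposite strands, and where the reads of each fell was not tested.

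Hspg2, the heparan sulphate proteoglycan perlecan, was an endothelial-class gene in both libraries: 3.20 UMIs per 10000 (2.60 to 3.89) and 3.68 (3.40 to 3.98) in Stab2-positive cells against 0.320 and 0.642 in Dcn/Lrat-positive cells. Nid1, the linker nidogen-1, was at 2.36 (1.85 to 2.96) and 2.17 (1.95 to 2.40) in Stab2-positive cells, but it was broad: Epcam-positive cells were at 2.22 and 1.63, and Alb-high cells at 0.993 and 0.382. Col18a1, whose C-terminal fragment is endostatin, was highest in Alb-high cells. It was at 3.14 (3.08 to 3.20) and 3.61 (3.57 to 3.65) in Alb-high cells, separated in both libraries. The next class was EGFP-positive cells at 2.59 in the DDC library and Epcam-positive cells at 2.62 in the other, and the log2 lead turned to -0.31 without the 5 deepest cells in the first and to -0.01 with a gate of 1 UMI in the second. The level was 1.40 and 1.88 in Dcn/Lrat-positive and 0.743 and 0.481 in Stab2-positive cells. After thinning, 47.3% and 49.8% of Alb-high cells had a Col18a1 UMI, against 18.9% and 16% of Kupffer cells, with median depths of 22007 and 3320 UMIs for Alb-high cells. Col15a1, a related collagen of basement membrane margins, was at 0.172 in Dcn/Lrat-positive cells of the DDC library, from 7 UMIs in 3 cells, and at 1.64 (1.42 to 1.89) in the other.

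Matricellular proteins bind matrix and receptors without building fibres. Sparc, a collagen-binding member, was shared by the 2 non-parenchymal classes: 21 UMIs per 10000 (19.4 to 22.7) in Stab2-positive and 11.3 (10.3 to 12.3) in Dcn/Lrat-positive cells of the DDC library, and 20.3 (19.6 to 21) and 19.2 (18.4 to 20) in the other, where the intervals overlapped. After thinning, 89.7% and 95.2% of Stab2-positive cells had a Sparc UMI, against 6.52% and 7.61% of Kupffer cells. Postn, which encodes periostin, was at 1.13 (0.829 to 1.51) and 0.701 (0.558 to 0.869) in Dcn/Lrat-positive cells and at most 0.0956 elsewhere. Thbs1, thrombospondin-1, an activator of latent TGF-beta, had its main source in 2 different places. In the DDC library the highest class was the 8 Epcam-positive cells at 0.288, from 10 UMIs of which 90% sat in 1 cell, and among the 5 classes without Epcam it was Kupffer cells at 0.0544. In the DDC and cMet library it was Dcn/Lrat-positive cells, at 1.72 (1.49 to 1.98), with 34.3% of those UMIs in 1 cell.

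The lysyl oxidases had low counts. Lox had 12 UMIs in all kept barcodes of the DDC library and 62 in the other, and Loxl1 had 29 and 153. Of the UMIs of Loxl1, 45.8% lay in Dcn/Lrat-positive cells of the DDC and cMet library, with 1 UMI in Kupffer cells and 0 in Stab2-positive and Alb-high cells. Loxl2, an oxidase that acts on type IV collagen, was at 0.394 (0.225 to 0.639) and 1.01 (0.840 to 1.21) in Dcn/Lrat-positive cells, and at 0.194 and 0.399 in Stab2-positive cells. Its level in Dcn/Lrat-positive cells of the DDC library was not separated from the 0.259 in Epcam-positive cells there, and 31.7% of its UMIs lay in EGFP-positive cells.

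The inhibitors and proteases had more varied sources than the collagens. Timp3, the inhibitor that binds matrix, was at 6.27 UMIs per 10000 (5.42 to 7.21) in Stab2-positive and 1.06 (0.766 to 1.43) in Dcn/Lrat-positive cells of the DDC library, and at 9.28 (8.83 to 9.75) and 11.2 (10.6 to 11.9) in the other. That lead of Dcn/Lrat-positive cells in the DDC and cMet library turned to a log2 value of -0.26 with a gate of 1 UMI and to -0.45 as a mean over cells. Timp2, which also helps to activate proMMP2, was at 2.53 and 4.03 in Dcn/Lrat-positive, 2.04 and 2.04 in Stab2-positive, and 1.20 and 1.49 in Kupffer cells. Timp1, the injury-induced inhibitor, was at 0.519 (0.307 to 0.820) in Epcam-positive, 0.369 in Dcn/Lrat-positive and 0.271 (0.249 to 0.296) in EGFP-positive cells of the DDC library, with overlapping intervals. In the other library it was at 1.84 (1.60 to 2.10) in Dcn/Lrat-positive cells, where 41.7% of the UMIs came from 1 cell, and at most 0.0948 elsewhere.

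Mmp2, the gelatinase A gene, had 43 UMIs in the DDC library, too few to test, and was at 0.650 (0.513 to 0.813) in Dcn/Lrat-positive cells of the other. Mmp14, the membrane-anchored activator of MMP2, was at 1.52 and 1.80 in Stab2-positive cells, the highest class in both libraries, and at 0.738 and 0.625 in Dcn/Lrat-positive cells. Mmp15, a second membrane-anchored protease, was highest in epithelial classes. It was at 0.618 (0.583 to 0.654) in EGFP-positive and 0.552 (0.528 to 0.576) in Alb-high cells of the DDC library, where no class was separated. Of the Dcn/Lrat-positive cells there, the 12 with both genes were at 0.658 (0.390 to 1.04) and the 11 with Dcn alone at 0.0753. In the other library it was at 0.597 (0.459 to 0.764) in Epcam-positive and 0.334 (0.322 to 0.347) in Alb-high cells. Adamts1, a secreted protease that cuts proteoglycans, was highest in Stab2-positive cells, at 2.07 (1.59 to 2.64) and 3.36 (3.09 to 3.65). Mmp7, matrilysin, a protease of injured epithelium, was counted 52 times in the DDC library, all in EGFP-positive cells, but 51 of those UMIs sat in 1 cell, which also passed the Epcam gate, and the other in a second. In the other library it had 10 UMIs in 4 barcodes, 8 of them in Kupffer cells.

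Promoter sequence was available for 24 of the members, as 28 windows of the 250 bases before an annotated start, from RefSeq (GRCm38.p6). Not matched were Col1a1, Col5a2, Col14a1, Fn1, Dcn, Lum, Eln, Mgp, Lox, Loxl1, Loxl2, Mmp2 and Thbs1. The motifs searched on both strands were the TATA box TATAAA, the CCAAT box, the GC box GGGCGG, the AP-1 motif TGANTCA, which reads the same on both strands, and the TEAD motif GGAATG. The windows of 4 members are shown because each held a TATA box and a further motif. Motifs are in capitals, and in the Mmp7 window the last base of a CCAAT box is the first base of a TATA box.
Col3a1 (chr1:45311288-45311537, plus strand): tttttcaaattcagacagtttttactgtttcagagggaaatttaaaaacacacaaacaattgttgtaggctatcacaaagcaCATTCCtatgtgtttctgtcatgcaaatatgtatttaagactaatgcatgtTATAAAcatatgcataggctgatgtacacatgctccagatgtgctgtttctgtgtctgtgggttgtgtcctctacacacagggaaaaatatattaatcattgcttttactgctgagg
Ecm1 (chr3:95739570-95739819, minus strand): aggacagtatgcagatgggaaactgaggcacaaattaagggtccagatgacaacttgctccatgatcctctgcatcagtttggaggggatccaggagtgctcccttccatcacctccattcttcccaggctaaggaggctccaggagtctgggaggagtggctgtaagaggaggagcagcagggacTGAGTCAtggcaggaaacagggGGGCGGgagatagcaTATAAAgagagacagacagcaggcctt
Adamts1 (chr16:85803114-85803363, minus strand): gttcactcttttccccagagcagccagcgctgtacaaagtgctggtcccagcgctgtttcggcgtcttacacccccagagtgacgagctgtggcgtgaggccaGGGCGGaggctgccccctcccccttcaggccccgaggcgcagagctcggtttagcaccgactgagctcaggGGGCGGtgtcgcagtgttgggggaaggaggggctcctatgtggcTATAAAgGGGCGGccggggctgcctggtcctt
Mmp7 (chr9:7691840-7692089, plus strand): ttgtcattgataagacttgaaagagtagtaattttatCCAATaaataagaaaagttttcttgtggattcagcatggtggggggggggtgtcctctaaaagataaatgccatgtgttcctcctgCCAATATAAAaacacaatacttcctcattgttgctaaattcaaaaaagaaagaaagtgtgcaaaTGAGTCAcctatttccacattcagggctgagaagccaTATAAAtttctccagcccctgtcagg
The Mmp7 window held 2 TATA boxes, 2 CCAAT boxes and an AP-1 motif, and the Ecm1 window a TATA box, a GC box and an AP-1 motif. The Adamts1 window held a TATA box and 3 GC boxes, and the Col3a1 window a TATA box and, on the other strand, a TEAD motif. Over the 28 member windows, TATAAA was in 17.9%, CCAAT in 35.7%, GGGCGG in 60.7%, TGANTCA in 10.7% and GGAATG in 17.9%, and over all 32851 windows of the table in 12.4%, 33.8%, 32.7%, 6.75% and 12.6%. A match is a description of the letters and not of a bound site.

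The class of highest level and the class that held most of a gene's RNA were often different, Dcn/Lrat-positive and Stab2-positive cells being few. Alb-high cells held 39.4% of all kept UMIs in the DDC library and 47.4% in the other, and EGFP-positive cells 20.4% in the DDC library, so their share of a gene is to be read against these values. Of all Fn1 UMIs, 43.5% and 57% lay in Alb-high cells, of Col18a1 48% and 57.3%, and of Nid1 39.9% and 39%. EGFP-positive cells of the DDC library held 34% of the Timp1 UMIs and 37.3% of those of Thbs1. Kupffer cells, with 5.69% and 13.7% of all kept UMIs, held 26.6% and 45.9% of the Timp2 UMIs, the largest share of a class in both libraries. They also held the most Ecm1 UMIs of any class in the DDC and cMet library (13.9%), at a level of 0.512 UMIs per 10000.

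**Figure D2:**
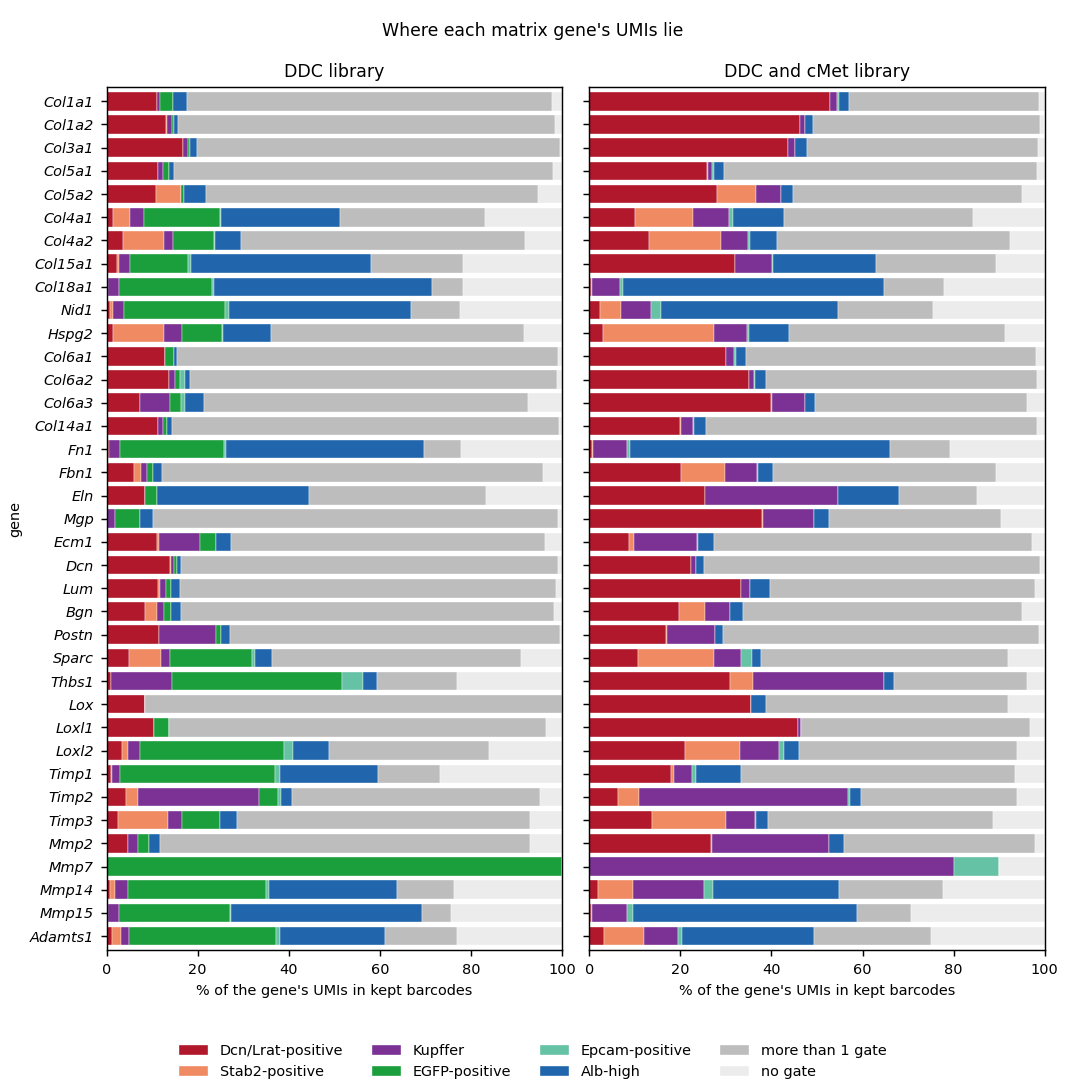
Share of each matrix gene's UMIs in kept barcodes (horizontal axis, percent) that lay in each gated class, for the DDC library and the DDC and cMet library, with darker grey for barcodes that passed several gates and light grey for those that passed none. Barcodes of several gates held 80.2% of the Col1a1 UMIs in the DDC library and 41.6% in the other, and Alb-high cells held 43.5% and 57% of those of Fn1.

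Much of the stellate-class RNA sat in barcodes that passed several gates: 80.2% and 41.6% of Col1a1, 79.6% and 50.9% of Col3a1, and 82.6% and 58.1% of Lum UMIs. Counted over every barcode that passed the Dcn or Lrat gate, whatever else it passed, the shares were high in both libraries. These 202 and 623 barcodes held 4.68% and 4.03% of all UMIs. They held 89.6% and 92.8% of Col1a1, 95.6% and 95.2% of Col1a2, 95.6% and 92.6% of Col3a1, 94.8% and 91.2% of Col14a1 and 92.7% and 90.5% of Lum. For genes with a further source the shares were lower: 45.7% and 49.1% of Sparc, 23.4% and 36.7% of Col4a1, 2.62% and 2.50% of Fn1 and 1.35% and 1.66% of Col18a1. Timp1 went from 9.63% to 69.5% and Thbs1 from 12% to 54.2%.

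Dcn/Lrat-positive cells were not uniform. In the DDC and cMet library 59 cells had UMIs of both Dcn and Lrat and 94 had Dcn without Lrat, with medians of 9253 and 1720 UMIs. Col1a1 was at 12.2 UMIs per 10000 in the first and 0.487 in the second, Col3a1 at 25.7 and 2.82, Bgn at 25.6 and 2.96, and Timp3 at 17.5 and 2.55. The stellate marker Colec11, which the gate did not use, was at 12.3 and 1.14, so the split moved the stellate markers along with the matrix genes, and depth as well. In the DDC library the 12 cells with both had Col1a1 at 0.694 and Col3a1 at 3.54, and the 11 with Dcn alone had 0.979 and 6.63, from 1 and 2 cells. Ecm1 and Lum were higher in the cells with both in that library, at 18.6 and 3.22, against 1.58 and 0 UMIs.

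Most members were higher in the Dcn/Lrat-positive cells of the DDC and cMet library than in those of the DDC library. Of 32 members with at least 50 UMIs in the class over both libraries together, 22 were at least 2-fold higher (9.58% of all 4904 genes tested) and 1, Ecm1, at least 2-fold lower (3.85% of all genes). The median log2 ratio was 1.37 over these members and -0.08 over all genes tested. A gene could pass this minimum through 1 library alone, for members and all genes alike. In the DDC library the class held 32 Col1a1 UMIs, 14 of Col5a2, 12 of Col6a2, 9 of Col6a3 and 9 of Fbn1. Of the fibrillar collagens, Col1a1 was at a log2 ratio of 3.21 (2.70 to 3.76), Col1a2 at 2.22 (1.89 to 2.56) and Col3a1 at 1.83 (1.61 to 2.05), while Col5a1 was at 0.55 with an interval that reached 0 (-0.04 to 1.19). Timp3 was at 3.41 (2.97 to 3.88) and Col15a1 at 3.25 (2.18 to 4.58). Thbs1 at 5.13 (3.26 to 8.19) and Mmp2 at 3.72 (1.82 to 6.80) each rested on 2 UMIs in the DDC library, and Loxl1 at 3 (1.40 to 5.31) on 3. Mgp, with 0 UMIs in this class of the DDC library, came out at least 64.2-fold higher, taking a floor of 3 UMIs over the class. That bound holds only with barcodes of several gates set aside. Over all 202 and 623 barcodes that passed the Dcn or Lrat gate, 92 and 1101 Mgp UMIs were counted. In the DDC and cMet library 1 kept barcode held 303 of the 1477 Mgp UMIs. Ecm1 was at -1.05 (-1.22 to -0.89) and Postn at -0.69 (-1.23 to -0.14). Fn1 (-0.22), Mmp14 (-0.24) and Nid1 (-0.02) lay near 0.

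The size of this difference depended on which barcodes were counted as stellate cells. With each barcode of several gates given to its highest gate, the alternative above, which was chosen after seeing the data, the class held 56 and 382 cells, and 8 of 33 members were at least 2-fold higher (5.72% of all genes) and none lower (1.79%). Those 8 were Col1a1, Col6a3, Col15a1, Mgp, Loxl1, Timp3, Mmp2 and Thbs1, all among the 22. Without the 5 deepest cells of each class, also added after seeing the data, 15 of 32 were higher (14.4% of all genes), and with every cell thinned to 2000 UMIs 5 of 13 (17.9%). Over 17 settings Col1a1 ranged from 1.23 to 3.86 and Timp3 from 1.75 to 3.80, and both were at least 2-fold higher in all 17. Col4a1 ranged from -0.24 to 1.49, Bgn from 0.14 to 2.25 and Lum from 0.13 to 2.70, and Ecm1 from -1.55 to 0.26. Markers of other cells moved with the difference: the summed smooth muscle and myofibroblast list (Acta2, Tagln, Myh11 and Cnn1) was at 0.0984 UMIs per 10000 in the DDC library, with Acta2 and Cnn1 at 0, and at 6.30 in the other, with Cnn1 at 0. The macrophage list went from 60.4 to 29.4 and the endothelial list from 3.30 to 7.15. Their part in the result was not tested.

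**Figure D3:**
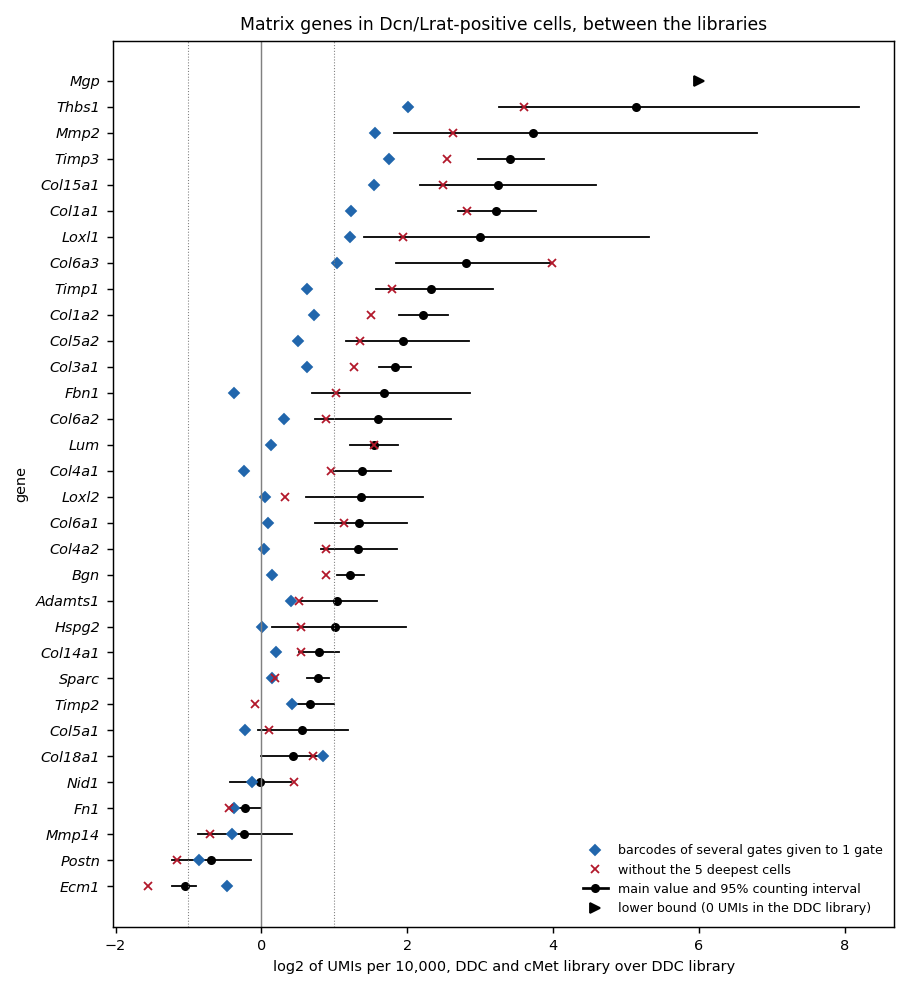
Log2 ratio of the level in Dcn/Lrat-positive cells, DDC and cMet library over DDC library (horizontal axis), for the 32 matrix genes tested, with 95% counting intervals, dotted lines at 2-fold, and 2 alternatives as blue diamonds and red crosses. The main values of 22 genes lie at or beyond 2-fold on the right, while most of the diamonds, for which barcodes of several gates were given to 1 gate, lie nearer to 0.

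The members were also set against Dcn over all kept barcodes, which needs no gate. The 22 members at least 2-fold higher in Dcn/Lrat-positive cells were picked from the same UMIs, so their counts here are a description only. No share over all genes was computed on this scale, and 0 does not mark a background. Dcn had 12340 of 93795411 kept UMIs in the DDC library and 29146 of 170006073 in the other. Of these 22 members, 16 were above 0 on this log2 scale, 15 of them with an interval above 0, and 5 (Col1a1, Mgp, Loxl1, Timp3 and Mmp2) were at least 2-fold higher. The other 6 were below 0: Timp1 at -1.56, Col4a1 at -1.16, Loxl2 at -0.99, Col4a2 at -0.27, Col15a1 at -0.21 and Adamts1 at -0.17. Col5a1, not among the 22, was at -0.34. There were 2.33 Col1a1 UMIs per 100 Dcn UMIs in the DDC library and 5.59 in the other (log2 ratio 1.26, interval 1.08 to 1.45). Mgp went from 0.875 to 5.07 (2.53), Mmp2 from 0.348 to 0.988 (1.5) and Col3a1 from 8.93 to 15.0 (0.75). The contractile genes Tagln and Acta2 went the same way, with ratios of 1.87 and 1.79, and the stellate markers Lrat, Reln and Colec11 were at -0.75 (-0.85 to -0.65), -0.31 and -0.04. Postn was lower per Dcn UMI (-0.95), and so was Ecm1 (-0.38). Genes with UMIs in epithelial classes too, such as Timp1 and Nid1 (-1.46), are not stellate measures on this scale. Nor are genes with UMIs in endothelial cells, such as Timp3, of which barcodes that passed the Dcn or Lrat gate held 46.6% and 47.8%.

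The other classes were compared between the libraries in the same way. In Stab2-positive cells 1 of 15 members tested, Loxl2, was at least 2-fold higher (5.79% of all genes) and none lower (3.5%), and its interval of the log2 ratio reached below 0 (1.04, -0.15 to 2.54). Sparc (-0.05, -0.17 to 0.07), Nid1 (-0.12, -0.49 to 0.26) and Hspg2 (0.20, -0.11 to 0.52) had intervals that took in 0, while Col4a1 (-0.57) and Col4a2 (-0.68) were lower and Timp3 (0.57) and Adamts1 (0.70) higher, all by under 2-fold. In Alb-high cells 5 of 21 members were at least 2-fold lower in the DDC and cMet library (10.6% of all genes): Timp1 at -2.58 (-2.90 to -2.28), Col4a1 at -2.27 (-2.42 to -2.12), Loxl2 at -2.20, Nid1 at -1.38 (-1.45 to -1.31) and Mmp14 at -1.23 (-1.35 to -1.11). Col3a1, Col14a1, Lum and Mgp were at least 2-fold higher there (5.23% of all genes), at levels of 0.0140 UMIs per 10000 or less, and Dcn, the gate gene of the stellate class, was at 0.0343 and 0.0593 in the same cells. Fn1 hardly differed, at -0.03 (-0.05 to -0.01). In Kupffer cells 5 of 24 members were at least 2-fold higher (Bgn, Mgp, Timp3, Mmp2 and Adamts1; 5.83% of all genes) and 2 lower (Postn and Timp1; 2.64%), and in Epcam-positive cells 2 of 8 were higher (Sparc and Mmp15; 7.35%) and none lower (2.08%). The Epcam-positive classes were not alike, since that of the DDC library leaves out the cells that also passed the EGFP gate. Over all 15 Epcam-positive cells of the DDC library, whether or not they passed the EGFP gate, Sparc was at 2.26 UMIs per 10000 (1.92 to 2.66) and Mmp15 at 0.405 (0.267 to 0.589), against 4.43 and 0.597 in the other library, so both calls rest on how such cells are counted. With each barcode of several gates given to its highest gate, 11 members were higher and 5 lower of 28 tested in Alb-high cells (5.86% and 10.2% of all genes). In Kupffer cells 3 were then higher and 13 lower, but neither the number tested nor the share over all genes is given, so no background can be set beside them.

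In the DDC library, EGFP-positive cells carried more RNA of several matrix regulators than Alb-high cells without EGFP. Of 19 members tested, 11 were at least 2-fold higher (9.95% of all genes) and none at least 2-fold lower (3.26%). After thinning to 2000 UMIs a cell, 8 members could be tested and 3 of them were at least 2-fold higher. The share over all genes was not computed after thinning. Among the members that differed by less than 2-fold between the classes were Fn1 at a log2 ratio of 0.02 (-0.01 to 0.05), Nid1 at 0.10, Col4a1 at 0.31 and Col18a1 at -0.28. Sparc was at 0.873 UMIs per 10000 in EGFP-positive and 0.0901 in Alb-high cells (3.28, 3.11 to 3.45), Loxl2 at 0.0795 and 0.0103 (2.95, 2.43 to 3.50) and Timp1 at 0.271 and 0.0892 (1.60, 1.40 to 1.81). Adamts1 was at 1.43 (1.30 to 1.57), Mmp14 at 1.06 (0.94 to 1.17), Timp3 at 2.16, Timp2 at 1.80, Col4a2 at 1.62 and Ecm1 at 1.04. Thbs1 (4.48) and Mmp7 (at least 33.5-fold) rested on single cells, with 63% of the Thbs1 UMIs of the EGFP-positive class and 51 of 52 Mmp7 UMIs in 1 cell each. EGFP marks Sox9-EGFP mice on the diet, whereas Alb-high cells include untreated mice, so reporter state and treatment cannot be told apart.

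**Figure D4:**
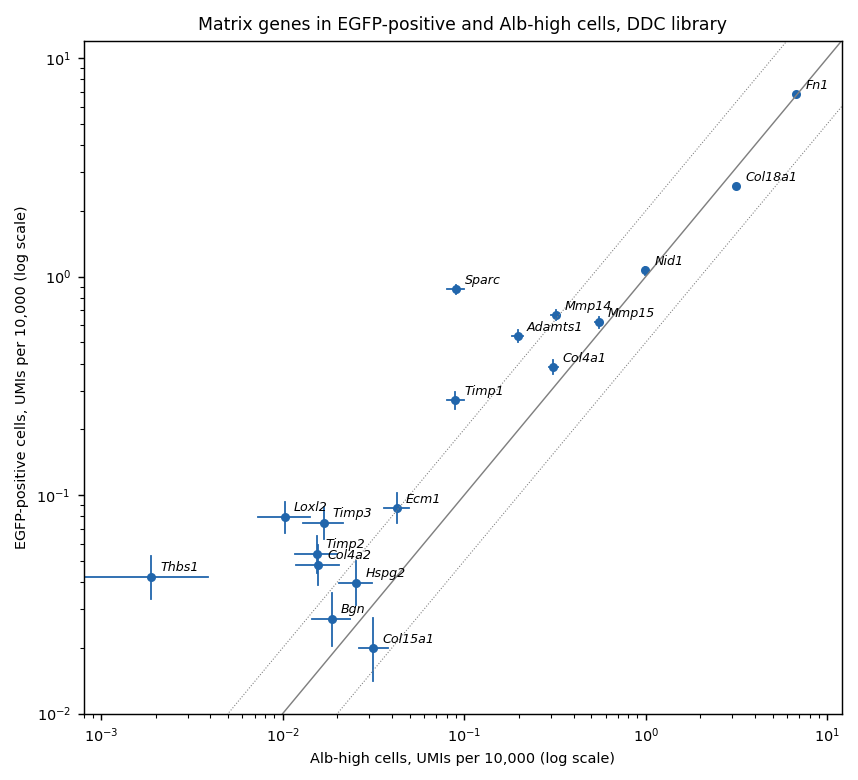
Level of the matrix genes tested in EGFP-positive cells (vertical axis) against Alb-high cells (horizontal axis) of the DDC library, in UMIs per 10000 on log axes, with 95% counting intervals; the solid line marks equal levels and the dotted lines 2-fold differences. Fn1, Col18a1, Nid1 and Mmp15 lie along the line of equal levels, and Sparc, Loxl2, Timp1 and Adamts1 lie above the upper dotted line; Mmp7, with 0 UMIs in Alb-high cells, is not drawn.

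After thinning to 2000 UMIs, 12% of EGFP-positive cells and 1.74% of Alb-high cells had a Sparc UMI, 14.1% and 5.22% a Mmp14 UMI, 7.85% and 3.29% an Adamts1 UMI and 4.97% and 1.55% a Timp1 UMI. In Kupffer cells the shares were 6.52%, 3.42%, 2.80% and 1.24%, and the median depths were 50505, 22007 and 9198 UMIs for EGFP-positive, Alb-high and Kupffer cells. Dcn was at 0.0418 UMIs per 10000 in EGFP-positive and 0.0343 in Alb-high cells, and the summed endothelial list at 0.242 and 0.225, while the 9 stellate markers summed to 1.30 and 0.183, with Rgs5, of which 2215 UMIs were counted in EGFP-positive cells, at 1.16 and 0.0584. Their part in the result was not tested. There were 20.9 Sparc UMIs per Dcn UMI in EGFP-positive cells against 0.264 in Dcn/Lrat-positive cells, and 50.6 per Stab2 UMI against 2.67 in Stab2-positive cells. Dcn and Stab2 are gate genes, and EGFP-positive barcodes that passed the Dcn/Lrat or Stab2 gate had been set aside. The gates therefore largely fixed these ratios in advance, and the source of the Sparc RNA was not tested. In the DDC and cMet library Epcam-positive cells had Sparc at 4.43 (4.04 to 4.85), against 0.0525 in Alb-high cells.

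A further 64 matrix genes outside the group were measured, of which 38 and 53 had at least 50 UMIs. Dcn/Lrat-positive cells were the highest class for 12 of 38 and 32 of 53, with 4 and 24 separated, beside 13.7% and 11.2% of all genes for the highest class and 0.802% and 2.41% for separation. Tgfbi, a TGF-beta-induced adhesion protein, was at 4.58 and 8.39 UMIs per 10000 in Dcn/Lrat-positive cells, and Prelp, a leucine-rich proteoglycan, at 2.61 and 4.13. Igfbp7 was highest in Stab2-positive cells of the DDC library (23.4) and in Dcn/Lrat-positive cells of the other (28.9). Vtn, the plasma protein vitronectin, was an epithelial-class gene at 14.6 and 19.1 in Alb-high cells, and Mmp12, macrophage elastase, a Kupffer-class gene at 5.26 and 7.71. Between the libraries, 17 of 33 of these genes tested in Dcn/Lrat-positive cells were at least 2-fold higher in the DDC and cMet library, and 1, Mmp13, was lower, against the same 9.58% and 3.85% of all genes.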

How the data were processed

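UMI count matrices of 2 droplet libraries (10x Genomics 3' chemistry) were used as deposited by the authors, with raw counts per gene and barcode and no normalization. The matrix header names Cell Ranger 5.0.1, while the submitters' processing notes list Cell Ranger 6.0.1, Seurat 4.0.1 and the mm10 build. Members and gene lists were chosen with earlier results of these data known. Barcodes below 500 genes or 1000 UMIs, or above 30% mitochondrial UMIs, were left out. No doublet caller was run, and barcodes passing gates of several cell types were set aside instead, apart from overlaps among the EGFP, Epcam and Alb-high gates. UMIs were summed per class and divided by the class total. Levels have exact Poisson intervals, ratios exact conditional binomial intervals and shares Clopper-Pearson intervals, at 95%. Genes needed 50 UMIs to be tested, over the gated classes together or, for a ratio, over both sides together, and 2-fold ratios were counted. A count of 0 was set to a floor of 3 UMIs in ratios. Every member is named. Coordinates come from GENCODE M21 (GRCm38). A split on tdTomato was planned, but 2 UMIs did not allow it. In simulated Poisson counts the ratio intervals covered 95.8% and 95.5% of unchanged genes in 2 comparisons. Coverage near 95% follows there from how the intervals are built, and spread between cells was not simulated. Python 3.11.15, numpy 2.4.6, scipy 1.17.1 and pandas 2.3.3 were used.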

Additional observations from a re-analysis of the deposited data

How the results depend on the processing

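No paired analysis was possible because each library was the only sample of its group. The stellate class of the DDC library held 23 cells, its deepest cell gave 15.5% of the class UMIs, and mice could not be separated, so the spread between animals is unknown. Over all alternatives run, 788 library ratios of single members moved by less than their counting interval, 218 moved by more, and 5 changed sign after passing 2-fold. For each value below that moved, the cause was not tested, except that thinning, a stricter gate and a UMI minimum change how many members or cells are tested. For the library comparisons in Dcn/Lrat-positive, Stab2-positive and Alb-high cells, the share over all genes in each setting is given in parentheses. The other counts below stand without it and are not read against it.

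Members whose highest class was Dcn/Lrat-positive in the DDC library (11) became 20 with barcodes of several gates kept in each, 18 with those barcodes given to their highest gate and 3 after thinning. In the DDC and cMet library 26 became 11 after thinning. For Stab2-positive cells of the DDC library 8 became 3 with barcodes of several gates kept and 5 after thinning; in the other library 5 became 8 with a gate of 1 UMI, 3 with Lrat only, 3 with barcodes of several gates kept and 8 as a mean over cells. For EGFP-positive cells 3 became 1 with barcodes of several gates kept and 1 after thinning. For Epcam-positive cells of the DDC library 2 became 1 with the stricter cell filter, 0 with a gate of 1 UMI, 1 with Lrat only, 9 with barcodes of several gates kept and 4 without the 5 deepest cells, and the stricter gate left no cell of that class; in the other library 1 became 2, 2 and 0 with a gate of 1 UMI, with barcodes of several gates kept and after thinning. For Alb-high cells of the DDC library 1 became 2 with the stricter gate, with the upper Alb quartile, with barcodes of several gates kept and with mitochondrial and the 50 highest Alb-high genes out of the total, and 0 without the 5 deepest cells; in the other library 2 became 1 with a gate of 1 UMI.

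Of the counts between libraries, the 22 members higher in Dcn/Lrat-positive cells became 13 of 32 as a mean over cells (12.8% of all genes). They became 5 of 13 after thinning (17.9%) and 8 of 33 with barcodes given to their highest gate (5.72%). The 1 lower member became 0 with a gate of 1 UMI (4.36% of all genes) and with barcodes of several gates kept (1.86%). It also became 0 with those given to their highest gate (1.79%) and with ratios centred on the median (2.88%). The count was 2 with the stricter gate (3.57%), as a mean over cells (13.8%) and without the 5 deepest cells (7.9%). It was also 2 with no UMI minimum (23.2%) and with at least 20 UMIs (6%). In Stab2-positive cells the 1 higher member became 0 with all deposited barcodes (5.95% of all genes), the stricter gate (5.77%) and Lrat only (5.32%). It also became 0 with Dcn only (5.44%), thinning (6.78%) and without the 5 deepest cells (7.25%). A gate of 1 UMI gave 3 of 12 (9.08%), and barcodes of several gates kept gave 4 of 30 (6.84%). No UMI minimum gave 3 of 29 (6.03%), and at least 20 UMIs gave 2 of 17 (7.75%). The 0 lower members there became 1 of 30 with barcodes of several gates kept (2.27% of all genes) and 1 of 10 after thinning (4.03%). With no UMI minimum they became 9 of 29 (28.3%). In Kupffer cells the 5 higher members became 2 with the stricter gate, 12 with Lrat only, 1 with barcodes of several gates kept, 1 after thinning, 3 with those barcodes given to their highest gate, 8 with no UMI minimum and 8 with at least 20 UMIs, and the 2 lower became 1 with Lrat only, 4 with barcodes of several gates kept, 4 as a mean over cells, 13 with those barcodes given to their highest gate and 4 with no UMI minimum. In Epcam-positive cells the 2 higher members became 1 with a gate of 1 UMI, as a mean over cells, without the 5 deepest cells and with centred ratios, 0 with barcodes of several gates kept and after thinning, and 5 with no UMI minimum; the 0 lower became 8 with barcodes of several gates kept, 1 as a mean over cells, 2 with those barcodes given to their highest gate, 3 without the 5 deepest cells, 14 with no UMI minimum and 1 with at least 20 UMIs. In Alb-high cells the 4 higher members became 2 of 11 with a gate of 1 UMI (4.43% of all genes) and 12 of 26 with Lrat only (5.37%). They became 10 of 28 with barcodes of several gates kept (5.59%) and 0 of 8 after thinning (3.97%). With those barcodes given to their highest gate they were 11 of 28 (5.86%), and with no UMI minimum 9 of 34 (5.98%). The 5 lower became 2 of 11 with a gate of 1 UMI (7.15%), 3 of 26 with Lrat only (10.4%) and 3 of 8 after thinning (7.33%). The 11 members higher in EGFP-positive than in Alb-high cells became 3 after thinning, with 8 tested.

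Some directions turned. With barcodes of several gates kept, the log2 lead of Stab2-positive cells in the DDC library went to -0.34 for Col4a1, -0.14 for Col4a2, -0.26 for Sparc and -0.46 for Adamts1, that for Nid1 in the other library to -0.10 (and -0.51 with Lrat only), and the library ratio of Ecm1 in Dcn/Lrat-positive cells to 0.25 (0.26 with a gate of 1 UMI). The lead of Alb-high cells for Col18a1 went to -0.31 without the 5 deepest cells in the DDC library and -0.01 with a gate of 1 UMI in the other. The lead of Dcn/Lrat-positive cells for Timp3 in the DDC and cMet library went to -0.26 with a gate of 1 UMI and -0.45 as a mean over cells, and that of Epcam-positive cells for Mmp15 to -0.47 after thinning. The library ratios of Col4a1 and Fbn1 in Dcn/Lrat-positive cells went to -0.24 and -0.37 with barcodes given to their highest gate, and that of Hspg2 to -0.25 with the stricter gate.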
